A study of Mus musculus with 12 samples.

Results

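Surface genes associated with memory B cells (Cd80, Cd86, Pdcd1lg2, Nt5e, Fas, Cd27, Cd82 and Ackr3) were followed across bulk RNAseq of sorted mouse peritoneal cavity (PerC) B cells. The 8 genes were taken by name as known markers of memory subsets, at a time when earlier results of these data were known. They are 8 of 56128 named genes in the count table. Knock-in (KI) mice carried Cd21-Cre together with R26 LSL-Gpr34Q340X-IRES-GFP, a Rosa26 allele from which Cre releases GFP and a shortened GPR34 with gain of function. Cd21-Cre acts from the mature B cell stage, and the labels name the other mice only as control, with no alleles, and give no age or treatment. From each genotype, B2 were sorted as IgD+IgM+ and MemB as IgD-IgM-, with 3 libraries in each of the 4 groups (Control B2, KI B2, Control MemB, KI MemB) called biological replicates 1 to 3. The MemB gate is defined by loss of IgD and IgM and not by any of the 8 genes.

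Memory B cells differ from naive B cells in the surface proteins with which they meet T cells. CD80 and CD86 are the B7 ligands of CD28 and CTLA-4, and PD-L2, encoded by Pdcd1lg2, is a ligand of PD-1. CD73, encoded by Nt5e, is an ecto-nucleotidase that makes adenosine from AMP. In mice, CD80, PD-L2 and CD73 are used in combination to divide memory B cells into subsets. Fas is a death receptor, CD27 a TNF receptor family member that marks human memory B cells and is a poorer marker in mice, CD82 a tetraspanin, and ACKR3 an atypical receptor that binds the chemokine CXCL12 without classical G protein signaling.

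Total counts ran from 29701381 to 39484437 per library. Libraries of a group varied widely (common biological variation 91.3% in edgeR). As the labels require, Gpr34 levels did not overlap between KI and control in either cell type and were higher in KI. The B cell identity genes (Cd79a, Cd79b, Ms4a1, Pax5, Cd22 and Ptprc) summed to between 3616 and 4248 CPM (counts scaled to a common library size) in all 12 libraries. Ighd and Ighm were lower, and 5 IgA and IgG constant genes higher, in MemB than in B2 (all 7 called by edgeR, averaged over the genotypes). In control mice alone Ighm was not called (log2 fold change -0.79, edgeR adjusted p = 0.0198), and Control MemB, sorted as IgM-, kept 2027 to 2706 CPM of Ighm, against 4100 to 4366 CPM in Control B2 and 299 to 570 CPM in KI MemB. Between KI and control MemB, edgeR called Ighm and Ighd lower and Igha higher in KI, and the part of these differences in the results on the 8 genes was not tested. By Xist and Ddx3y, replicate 3 of each group came from female mice and replicates 1 and 2 from male mice. Summed levels of 6 mast cell genes were 45.3, 75.5 and 244 CPM in Control MemB replicate 1, KI B2 replicate 3 and Control MemB replicate 3, and at most 1.78 CPM in the other 9 libraries. A called gene is one whose edgeR adjusted p fell below 0.05 while its log2 fold change lay beyond -1 or 1. All 8 genes passed the filter on low counts, Ackr3 through Control MemB alone.

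Cd80 and Fas were the members called in a comparison, so the sequences around their transcription start sites are shown, from 250 bases before to 50 bases after the start of the canonical transcript, on the coding strand of GRCm39. Capitals mark the AP-1 motif TGANTCA and, in Fas, also the STAT motif TTCNNNGAA. The Cd80 window lies at chr16:38279045-38279344 (+ strand) and the Fas window at chr19:34267809-34268108 (+ strand).

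Cd80 promoter: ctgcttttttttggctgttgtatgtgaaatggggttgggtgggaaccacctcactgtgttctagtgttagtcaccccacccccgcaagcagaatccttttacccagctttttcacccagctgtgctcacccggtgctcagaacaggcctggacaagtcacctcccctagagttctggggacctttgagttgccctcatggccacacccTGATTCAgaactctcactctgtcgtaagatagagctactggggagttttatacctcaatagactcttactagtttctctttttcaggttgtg
Fas promoter: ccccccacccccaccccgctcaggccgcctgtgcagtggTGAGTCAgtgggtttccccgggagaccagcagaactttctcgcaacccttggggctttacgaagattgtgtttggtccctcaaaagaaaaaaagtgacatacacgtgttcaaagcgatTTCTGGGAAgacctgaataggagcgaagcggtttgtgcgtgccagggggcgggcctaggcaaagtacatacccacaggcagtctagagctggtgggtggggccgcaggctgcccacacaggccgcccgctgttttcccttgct

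Both windows held 1 AP-1 motif, which began at -42 in Cd80 and at -211 in Fas relative to the start site, and such a motif, read on both strands, occurred in 7.15% of 21757 promoters of the same length. The STAT motif of Fas began at -93 and was found in 8.82% of these promoters. Of the other 6 members, none held either motif in this window, and Nt5e and Pdcd1lg2 each held 1 match to the NF-kB consensus, which occurred in 8.97% of promoters. The motifs do not overlap each other. These matches describe the letters of the windows and were not linked to any binding.

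**Figure D1:**
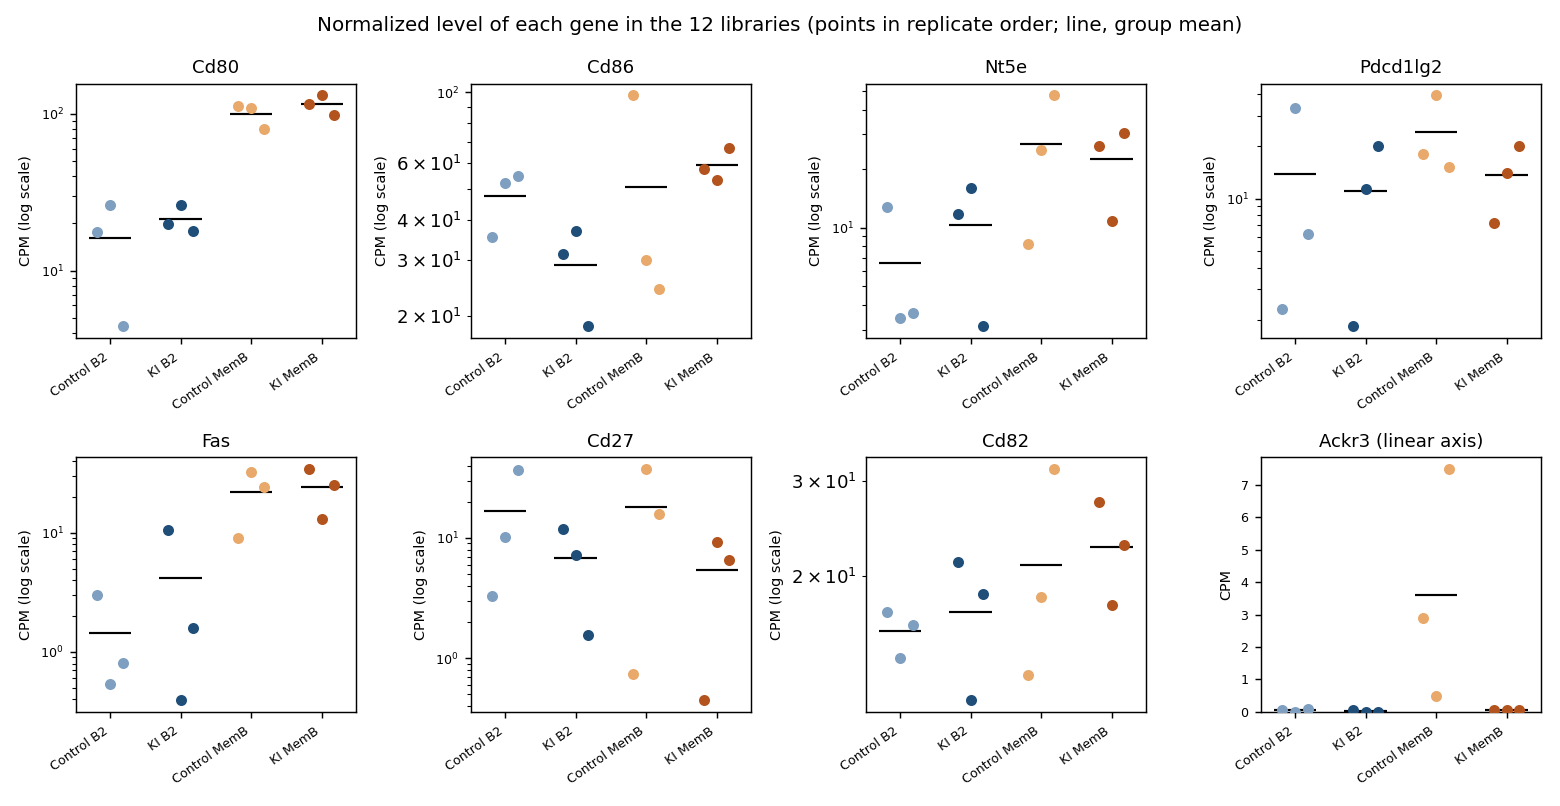
CPM of each of the 8 genes in the 12 libraries by group, with a logarithmic y axis except for Ackr3 (linear); points are libraries in replicate order and lines are group means. The 6 MemB libraries lie above the 6 B2 libraries for Cd80, Fas shows 1 high KI B2 library, and Ackr3 is above 0.1 CPM in Control MemB only.

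The first comparison set MemB against B2 over both genotypes, with equal weight on each. MemB had 5.79 times as much Cd80 mRNA as B2 and 9.29 times as much Fas, and these were 2 of 8 members called, both higher, while 154 of 14933 genes tested (1.03%) were called in either direction and 98 (0.656%) were called higher. The median log2 fold change was 0.57 over the 7 members other than Ackr3, against 0.02 over all genes tested. Since the members were chosen with earlier results of these data known, these shares and medians describe the set and do not test it. Nt5e, Cd86, Pdcd1lg2, Cd82, Ackr3 and Cd27 were not called.

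Cd80 (ENSMUSG00000075122, chr16:38275923-38316697, + strand, GRCm39) encodes the B7-1 ligand. In Control B2 its level was 17.7, 26.4 and 4.41 CPM in replicates 1 to 3. In KI B2 it was 19.8, 26.2 and 17.96 CPM. In Control MemB it was 112, 108 and 80.2 CPM, and in KI MemB 116, 131 and 98.6 CPM. Every MemB library was above every B2 library, a separation in the upward direction seen in 121 of the genes tested (0.81%), and the lowest B2 value was that of Control B2 replicate 3. The log2 fold change of MemB over B2 was 2.53 (SE 0.33, 95% interval 1.85 to 3.21, edgeR adjusted p = 1.29e-05). In control mice alone it was 2.63 (SE 0.47, edgeR adjusted p = 0.00478) and in KI mice alone 2.43 (SE 0.47, edgeR adjusted p = 0.00727).

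Cd80 was the 1 of 8 members called in control mice, where 40 of 14933 genes (0.268%) were called, and the 1 of 8 called in KI mice, where 54 genes (0.362%) were. The averaged call held with each of the 12 libraries left out in turn, with edgeR adjusted p between 2.56e-06 and 7.55e-05. The call in KI mice was lost when KI B2 replicate 1 or KI B2 replicate 3 was left out (log2 fold changes 2.38 and 2.32, edgeR adjusted p = 0.0516 and 0.0522). It was also lost without the 3 libraries high in mast cell genes, KI B2 replicate 3 among them (log2 fold change 2.33, edgeR adjusted p = 0.0518). The size of the difference thus moved little from 2.43 where the call was lost. The call in control mice was lost in a fit of the 6 control libraries alone (log2 fold change 2.62, edgeR adjusted p = 0.0514).

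Exons of Cd80 overlap those of Timmdc1 and of the noncoding gene Gm60172 on the opposite strand, and the use of strand in counting is not given in the sources used here, so reads in the shared stretch cannot be told apart. Timmdc1 itself, which encodes a mitochondrial complex I assembly factor, differed between MemB and B2 by a log2 fold change of 0.11 (SE 0.69, edgeR adjusted p = 0.975). Of 7 genes used as markers of B-1 cells, the other PerC B cell population, edgeR called 3 higher in MemB averaged over the genotypes. These were Spn, Bhlhe41 and Zbtb32, while 0.656% of all genes were called higher. Averaged over the genotypes, Cd5 and Plscr1 had negative log2 fold changes (-0.46 and -0.36, edgeR adjusted p = 0.905 and 0.853). Within control mice all 7 genes had positive log2 fold changes, and edgeR called 2 higher (0.268% of all genes were called). Within KI mice 4 were positive and 3 negative, and edgeR called 2 higher (0.362% of all genes were called). The sum over the 7 genes was 675 to 694 CPM in Control MemB and 487 to 549 CPM in KI MemB, and 138 to 259 CPM across the B2 libraries. The study gates B-1 cells as IgD-IgM+, which the IgM- gate of MemB should leave out, while Ighm remained in Control MemB as given above. Other marker lists also held averaged calls (1.03% of all genes). EdgeR called 2 of 6 dendritic cell and 1 of 8 plasma cell genes higher in MemB. It called 3 of 6 naive B cell genes lower. Of 6 germinal center genes, 5 had positive log2 fold changes and 1 was called lower. In control mice 7 of 8 T cell, 4 of 4 NK cell and 3 of 3 mast cell genes tested were positive. EdgeR called 1 there, of mast cells (0.268% of all genes). In KI mice 3, 1 and 0 were positive. Whether any of these cells have a part in the Cd80 or Fas difference was not tested. In bulk RNA a change in the share of a cell type cannot be told apart from a change in RNA per cell.

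Cd86 (ENSMUSG00000022901, chr16:36424044-36486443, - strand), the other B7 ligand of CD28, did not follow Cd80. Its level was 35.2, 51.9 and 54.6 CPM in Control B2 and 31.3, 37.0 and 18.5 CPM in KI B2. It was 97.9, 29.98 and 24.3 CPM in Control MemB and 57.4, 53.0 and 67.1 CPM in KI MemB. The groups overlapped in control mice, where the highest and the lowest values were both in MemB, while in KI mice every MemB library was above every B2 library. The averaged log2 fold change of MemB over B2 was 0.57 (SE 0.35, 95% interval -0.14 to 1.28, edgeR adjusted p = 0.520). In KI mice alone it was 1.03 (SE 0.50, edgeR adjusted p = 0.464), and higher values in all MemB libraries were found for 7.31% of genes in that comparison. The test of whether the MemB to B2 difference itself differed by genotype gave 0.93 on the log2 scale (SE 0.70, edgeR adjusted p = 0.793).

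Within a library, the number of Cd80 counts for each Cd86 count was 0.504, 0.508 and 0.0807 in Control B2 and 0.631, 0.709 and 0.969 in KI B2. It was 1.15, 3.61 and 3.30 in Control MemB and 2.01, 2.48 and 1.47 in KI MemB. Cd86 counts thus exceeded Cd80 counts in all 6 B2 libraries and Cd80 counts exceeded Cd86 counts in all 6 MemB libraries. This ratio uses the Cd80 values already tested above and is not a separate test.

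**Figure D2:**
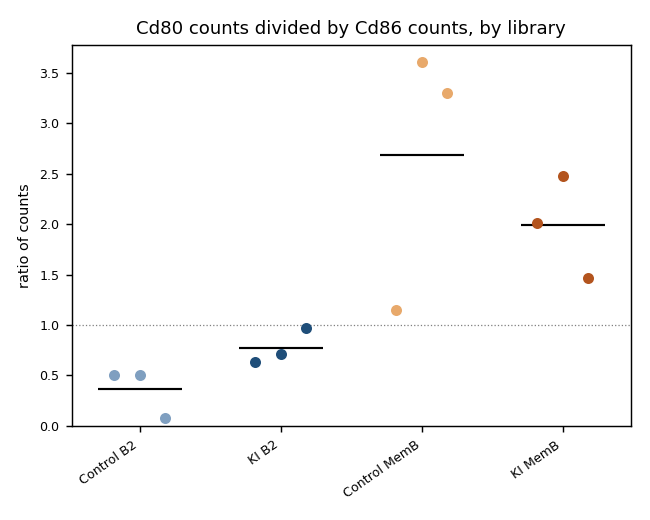
Ratio of Cd80 counts to Cd86 counts in each library (linear y axis, not corrected for transcript length); points are libraries in replicate order, lines are group means and the dotted line marks equal counts. B2 libraries lie between 0.0807 and 0.969 and MemB libraries between 1.15 and 3.61.

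Pdcd1lg2 (ENSMUSG00000016498, chr19:29388319-29448882, + strand), which encodes PD-L2, varied more between libraries of a B2 group than between groups. It was 2.30, 33.1 and 6.29 CPM in Control B2 and 1.83, 11.3 and 20.1 CPM in KI B2. It was 17.9, 39.3 and 15.3 CPM in Control MemB and 7.24, 14.0 and 19.9 CPM in KI MemB. Both replicate 1 libraries of B2 were low, and B2 and MemB overlapped in each genotype. The averaged log2 fold change was 0.55 (SE 0.63, 95% interval -0.73 to 1.83, edgeR adjusted p = 0.788). It ranged from 0.28 to 1.40 when 1 library was left out.

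Among 11 other genes of the B7 and CD28 family, 8 were tested. In the averaged comparison edgeR called 1 of them, Icosl, against 1.03% of all genes. Icosl, the ligand of ICOS, moved opposite to Cd80. It was 141, 106 and 108 CPM in Control B2 and 150, 112 and 86.2 CPM in KI B2. It was 28.8, 20.1 and 20.0 CPM in Control MemB and 63.1, 38.7 and 42.7 CPM in KI MemB. From B2 to MemB, Icosl fell by 1.82 on the log2 scale averaged over the genotypes (SE 0.26, edgeR adjusted p = 5.24e-05). Cd274, which encodes PD-L1, had a log2 fold change of 0.19 (SE 0.34, edgeR adjusted p = 0.890). Of the receptors, Cd28 had one of 1.42 (edgeR adjusted p = 0.439) and Ctla4 one of 0.55 (edgeR adjusted p = 0.832). Pdcd1 did not pass the filter, with 239 counts in Control MemB replicate 2 and at most 2 in any other library. Between KI and control MemB edgeR called 0 of the 8 genes, with 3 at an unadjusted p below 0.05 (11.1% of all genes). DESeq2 called 1 higher there, Icosl (5.24% of all genes were called).

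Nt5e (ENSMUSG00000032420, chr9:88209089-88254146, + strand) was higher on average in MemB without passing the test. It was 12.7, 3.44 and 3.64 CPM in Control B2 and 11.7, 16.0 and 3.11 CPM in KI B2. It was 8.21, 24.9 and 47.6 CPM in Control MemB and 26.3, 10.8 and 30.6 CPM in KI MemB. Control MemB replicate 1 and KI MemB replicate 2 lay among the B2 libraries. The averaged log2 fold change was 1.58 (SE 0.59, 95% interval 0.39 to 2.77), with an unadjusted p of 0.0110 and an adjusted p of 0.201 in edgeR, where 12.9% of genes had an unadjusted p below 0.05. Of 10 other adenosine pathway genes, 7 were tested and edgeR called 0, with 0 at an unadjusted p below 0.05 and 0 called by DESeq2 in the averaged comparison. Entpd1, which encodes CD39, the enzyme upstream of CD73, had a log2 fold change of 0.42 (SE 0.54, edgeR adjusted p = 0.821).

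Fas (ENSMUSG00000024778, chr19:34268001-34305173, + strand) had the largest averaged fold change among the members that were called. It was 3.01, 0.540 and 0.801 CPM in Control B2 and 10.6, 0.394 and 1.60 CPM in KI B2. It was 9.01, 32.3 and 24.1 CPM in Control MemB and 34.2, 13.1 and 24.9 CPM in KI MemB. KI B2 replicate 1 was high for B2 and lay above Control MemB replicate 1, the lowest MemB library, and these were the only libraries that overlapped. The averaged log2 fold change was 3.22 (SE 0.74, 95% interval 1.71 to 4.72, edgeR adjusted p = 0.0163).

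With 1 library left out, the averaged log2 fold change of Fas ranged from 2.95 to 4.25. It ranged from 3.51 to 5.02 in control mice and from 1.99 to 4.59 in KI mice. The Fas call was less firm than that of Cd80. It was lost when Control B2 replicate 2, Control B2 replicate 3 or KI B2 replicate 3 was left out (log2 fold changes 3.02, 3.07 and 3.02, edgeR adjusted p = 0.0508, 0.0508 and 0.0544). It was also lost without the 4 libraries numbered 3 (log2 fold change 2.84, edgeR adjusted p = 0.206) and without the 3 libraries high in mast cell genes (3.31, edgeR adjusted p = 0.0555). DESeq2 called Fas with an adjusted p of 0.000480, and 817 genes (5.51% of those with an adjusted p) over all. Within control mice the log2 fold change was 3.91 (SE 1.08, edgeR adjusted p = 0.160) with every MemB library above every B2 library, as for 6.34% of genes, and DESeq2 called it there (adjusted p = 0.00595), as it did 669 genes (4.6%). Within KI mice it was 2.53 (SE 1.01, edgeR adjusted p = 0.382), also with every MemB library higher, as for 7.31% of genes, and DESeq2 did not call it there (adjusted p = 0.139).

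**Figure D3:**
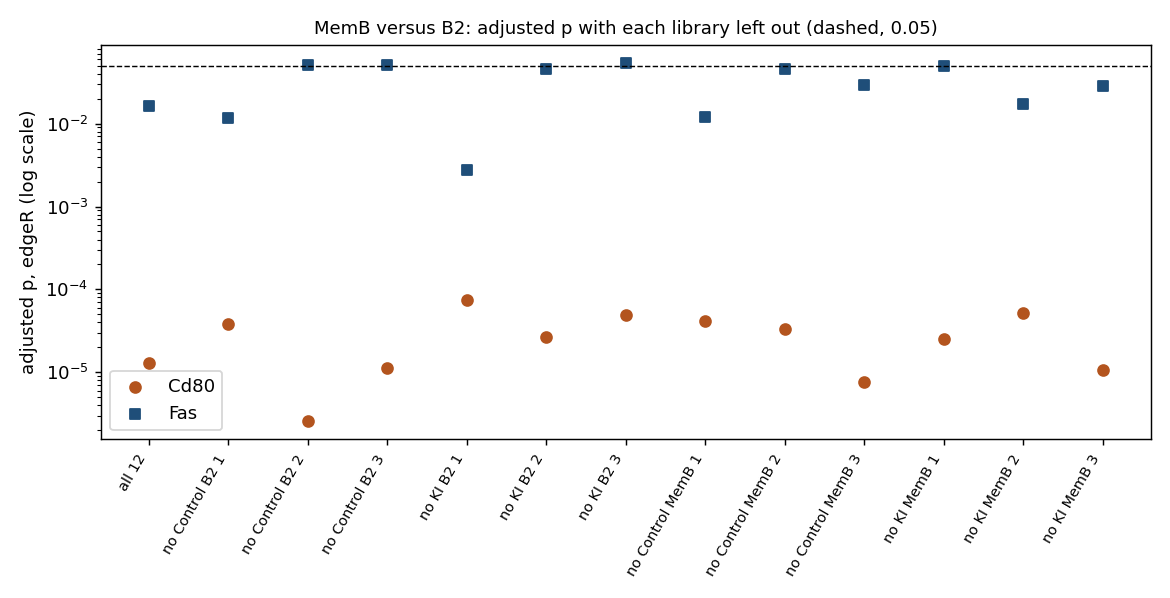
Adjusted p of Cd80 and Fas from edgeR for MemB versus B2, averaged over the genotypes (log y axis), in the fit of all 12 libraries and with each library left out; the dashed line is 0.05. Cd80 stays between 2.56e-06 and 7.55e-05, and Fas lies between 0.00275 and 0.0544, above the line in 3 of 12 fits.

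Of 10 Fas death pathway genes (the ligand, adaptor, caspases and regulators), 9 were tested in MemB against B2. EdgeR called 0, with 1 at an unadjusted p below 0.05 (12.9% of all genes), and DESeq2 called 0. Fasl, the ligand, was detected above 40 counts in 1 library, Control MemB replicate 1, at 311 counts. It had an averaged log2 fold change of 0.22 (SE 1.89, edgeR adjusted p = 0.983). Between KI and control MemB edgeR called 0 of the 9 genes, with 4 at an unadjusted p below 0.05 (11.1% of all genes). DESeq2 called 1 lower there, Fasl (5.24% of all genes were called).

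Cd27 (ENSMUSG00000030336, chr6:125209585-125213988, - strand), which binds CD70, showed no direction between MemB and B2. It was 3.31, 10.2 and 37.1 CPM in Control B2 and 11.8, 7.22 and 1.54 CPM in KI B2. It was 0.744, 37.5 and 15.9 CPM in Control MemB and 0.446, 9.31 and 6.62 CPM in KI MemB. Within Control MemB the highest library had 50.5 times the level of the lowest, the widest range of any member in a group with no library at the floor of 3 counts. The averaged log2 fold change was -0.11 (SE 0.77, 95% interval -1.69 to 1.46, edgeR adjusted p = 0.978), and its sign changed when any of 4 libraries was left out. Cd70, which encodes its ligand, had 0 counts in all 12 libraries. Of 8 genes of CD27 signaling 7 were tested and edgeR called 0, with 0 at an unadjusted p below 0.05 and 0 called by DESeq2. An exon of Cd27 contains the microRNA gene Mir8113 on the same strand.

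Cd82 (ENSMUSG00000027215, chr2:93249455-93293485, - strand), a tetraspanin, was not called in any comparison. It was 17.1, 14.1 and 16.2 CPM in Control B2 and 21.3, 11.8 and 18.5 CPM in KI B2. It was 13.1, 18.3 and 31.6 CPM in Control MemB and 27.4, 17.7 and 22.9 CPM in KI MemB. MemB and B2 overlapped in each genotype, and the averaged log2 fold change was 0.40 (SE 0.46, 95% interval -0.54 to 1.35, edgeR adjusted p = 0.791). Of 11 other tetraspanins 9 were tested in that comparison. EdgeR called 0, with 1 at an unadjusted p below 0.05 (12.9% of all genes), and DESeq2 called 0. Between KI and control MemB edgeR also called 0, with 4 of 9 at an unadjusted p below 0.05 (11.1% of all genes). DESeq2 called 1 lower there, Cd9 (5.24% of all genes were called). Cd9 was at 15.7 to 22.7 CPM in Control MemB and 0.493 to 1.60 CPM in KI MemB.

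Ackr3 (ENSMUSG00000044337, chr1:90131689-90144473, + strand) was detected above background counts in Control MemB alone. Its counts were 2, 0 and 3 in Control B2 and 2, 0 and 0 in KI B2. They were 101, 16 and 248 in Control MemB, or 2.89, 0.473 and 7.48 CPM, and 2 in each KI MemB library. Set against a floor of 3 counts per library in Control B2, the Control MemB mean was 36.7-fold higher. It was 17.1-fold higher without Control MemB replicate 3, the highest library. These ratios of means leave out the spread within Control MemB. Its lowest library was at 0.473 CPM, against a mean floor of 0.0984 CPM in Control B2. EdgeR did not call Ackr3 in any comparison. Since it passed the filter through Control MemB alone, the group in which it is high, its values are given as a description without p-values. With both at the floor, no fold is given for KI MemB against KI B2.

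No test set Ackr3 against its receptor partner Cxcr4. Cxcr4, the signaling receptor for CXCL12, was 77.2, 137 and 35.8 CPM in Control MemB and 49.0, 78.2 and 49.2 CPM in KI MemB. In B2 it was 94.6, 152 and 162 CPM in control and 228, 215 and 121 CPM in KI mice. MemB and B2 overlapped in control mice, and Cxcr4 fell by 1.19 on the log2 scale averaged over the genotypes (SE 0.26, edgeR adjusted p = 0.0121). Arrb1, which encodes beta-arrestin 1, fell by 1.72 (SE 0.41, edgeR adjusted p = 0.0207). These were the 2 genes edgeR called of 5 tested among a list of 8 genes (Cxcr4, the ligands Cxcl12 and Cxcl11, the atypical receptors Ackr1, Ackr2 and Ackr4, and the beta-arrestins Arrb1 and Arrb2), against 1.03% of all genes. DESeq2 called 4, against 5.51% of all genes, with Cxcr4, Arrb1 and Ackr4 lower and Ackr2 higher in MemB. Cxcl12 itself had 0 counts in all 12 libraries.

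The next comparison was KI against control within MemB. Here edgeR called 0 of the 8 members, while 42 of 14933 genes (0.281%) were called, and of the 7 members other than Ackr3 it found 0 at an unadjusted p below 0.05 (11.1% of all genes were). DESeq2 with its default settings called 0 of these 7 and 777 genes (5.24%) over all. This comparison uses the same Control MemB and KI MemB libraries as those above and is not independent of them.

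With 2 counts in each KI MemB library and 16 to 248 in Control MemB, Ackr3 was lower in KI MemB. Against the floor of 3 counts in KI MemB, the ratio of means was 36.9, and 17.2 without Control MemB replicate 3. These ratios are not lower limits on the difference, since they leave out the spread within Control MemB (0.473 to 7.48 CPM). The Control MemB libraries with the most Ackr3 were replicates 3 and 1, which were also those with the most mast cell transcripts (244 and 45.3 CPM), and replicate 2, with 1.54 CPM of mast cell transcripts, had 16 Ackr3 counts. KI B2 replicate 3 had 75.5 CPM of mast cell transcripts and 0 Ackr3 counts.

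The summed T cell and NK cell markers were also higher in every Control MemB library than in every KI MemB library. The macrophage and dendritic cell sums overlapped. Itgam carried most of the macrophage sum. Ccr7 had the highest mean of the dendritic cell genes in both groups, and Ccl22 added 90.6 CPM in Control MemB replicate 3. For the lists that follow, the shares over all genes in this comparison were 0.281% called by edgeR and 5.24% called by DESeq2. An unadjusted p below 0.05 in edgeR was found for 11.1%. The sum of 8 T cell genes was 76.1, 141 and 171 CPM in Control MemB and 15.2, 64.7 and 49.4 CPM in KI MemB. All 8 had a negative log2 fold change, with 0 called by edgeR, 4 at an unadjusted p below 0.05 and 3 called by DESeq2. The sum of 7 NK cell genes was 48.0, 65.3 and 21.9 CPM in Control MemB and 6.86, 0.864 and 7.30 CPM in KI MemB, and of 4 tested edgeR called 1 lower in KI (Nkg7) and DESeq2 2 (Nkg7 and Klrk1). Of 3 mast cell genes tested edgeR called 1 lower (Cma1) and DESeq2 2 (Cma1 and Cpa3). Of 9 macrophage genes, 5 (Cd14, Fcgr1, Gata6, Marco and Mertk) had 0 counts in all 12 libraries, and the sum of the 9 overlapped between Control MemB (39.7 to 99.3 CPM) and KI MemB (46.0 to 101 CPM), with Itgam at a mean of 53.1 and 78.6 CPM. Csf1r was at 0 to 13.9 CPM in Control MemB and at most 0.154 CPM in KI MemB, and Lyz2 at 0.0858 to 8.77 and at most 0.185 CPM. Of 3 macrophage genes tested edgeR called 0, with 1 at an unadjusted p below 0.05, and DESeq2 called 1 lower in KI (Lyz2). The sum of 8 dendritic cell genes was 126, 134 and 290 CPM in Control MemB and 144 to 158 CPM in KI MemB, with Ccr7 at a mean of 111 and 76.0 CPM. Of 6 of them tested edgeR called 1 lower in KI (Ccl22), and DESeq2 called Ccl22 lower and Batf3 higher. The part of these cells in the Ackr3 difference was not tested.

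**Figure D4:**
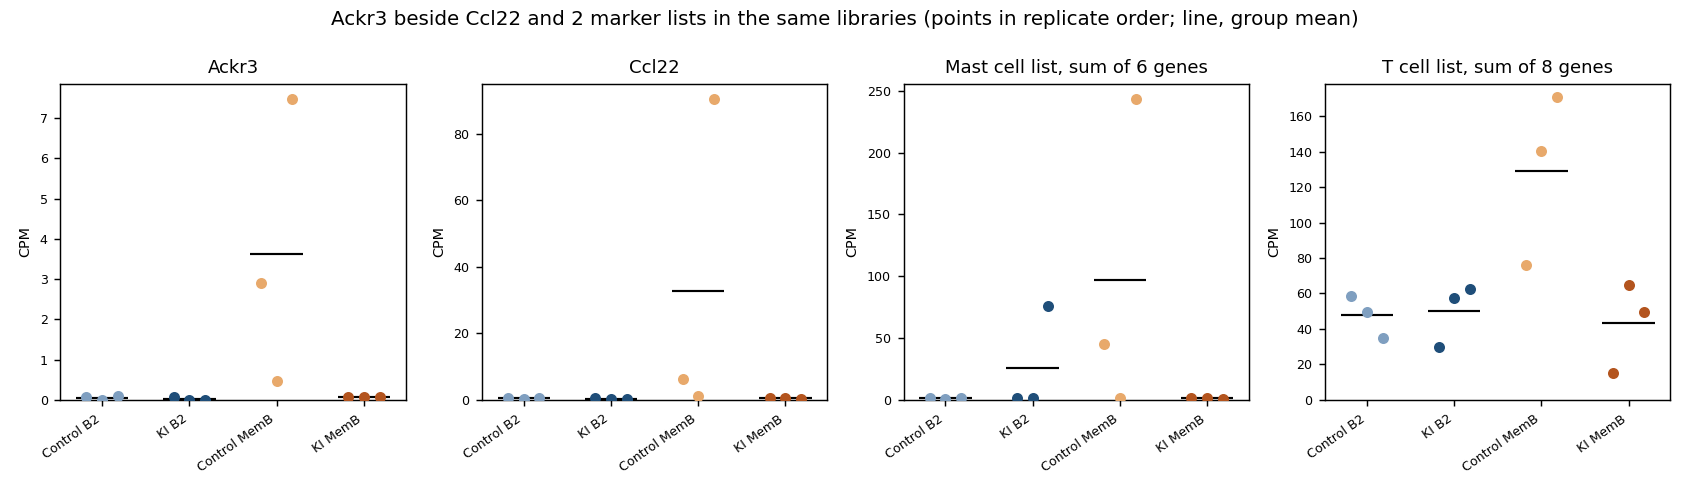
CPM of Ackr3, of Ccl22, and of the summed mast cell and T cell marker lists in the same 12 libraries (linear y axes); points are libraries in replicate order and lines are group means. Control MemB replicates 3 and 1 are the 2 highest libraries for Ackr3 and Ccl22, and the mast cell sum is also high in KI B2 replicate 3 (75.5 CPM), where Ackr3 has 0 counts.

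The other 7 members gave no call between KI and control MemB. The log2 fold change of Cd80 was 0.20 (SE 0.45, 95% interval -0.71 to 1.11, edgeR adjusted p = 0.930), so a change of over 1 in the downward direction lies outside the interval. Cd86 had one of 0.22 (95% interval -0.78 to 1.22) and Cd82 one of 0.11 (-1.22 to 1.45). The intervals of the others were wider. Fas had one of 0.14 (-1.80 to 2.09), Nt5e -0.26 (-1.90 to 1.39), Pdcd1lg2 -0.82 (-2.63 to 1.00) and Cd27 -1.73 (-4.02 to 0.57). A log2 fold change of 2 is thus within the interval of Fas, and one of -2 within those of Pdcd1lg2 and Cd27.

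In B2, edgeR called 0 of the 8 members between KI and control, with 0 at an unadjusted p below 0.05 and 0 called by DESeq2, while over all genes edgeR called 1 of 14933 (0.0067%) and DESeq2 196 (1.32%). Cd80 had a log2 fold change of 0.40 (95% interval -0.52 to 1.31), Cd86 -0.71 (-1.72 to 0.30) and Fas 1.52 (-0.48 to 3.53), the last resting on KI B2 replicate 1, without which it was -0.54. Ackr3 was at the floor in both groups, so no fold is given. The test for a KI effect that is unequal in MemB and B2 called 0 of the 8 members in edgeR, with 0 at an unadjusted p below 0.05 and 0 called by DESeq2, while over all genes edgeR called 10 (0.067%) and DESeq2 412 (2.65%). For Cd80 this difference was -0.20 (SE 0.63, edgeR adjusted p = 0.987) and for Fas -1.38 (SE 1.36, edgeR adjusted p = 0.877).

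**Figure D5:**
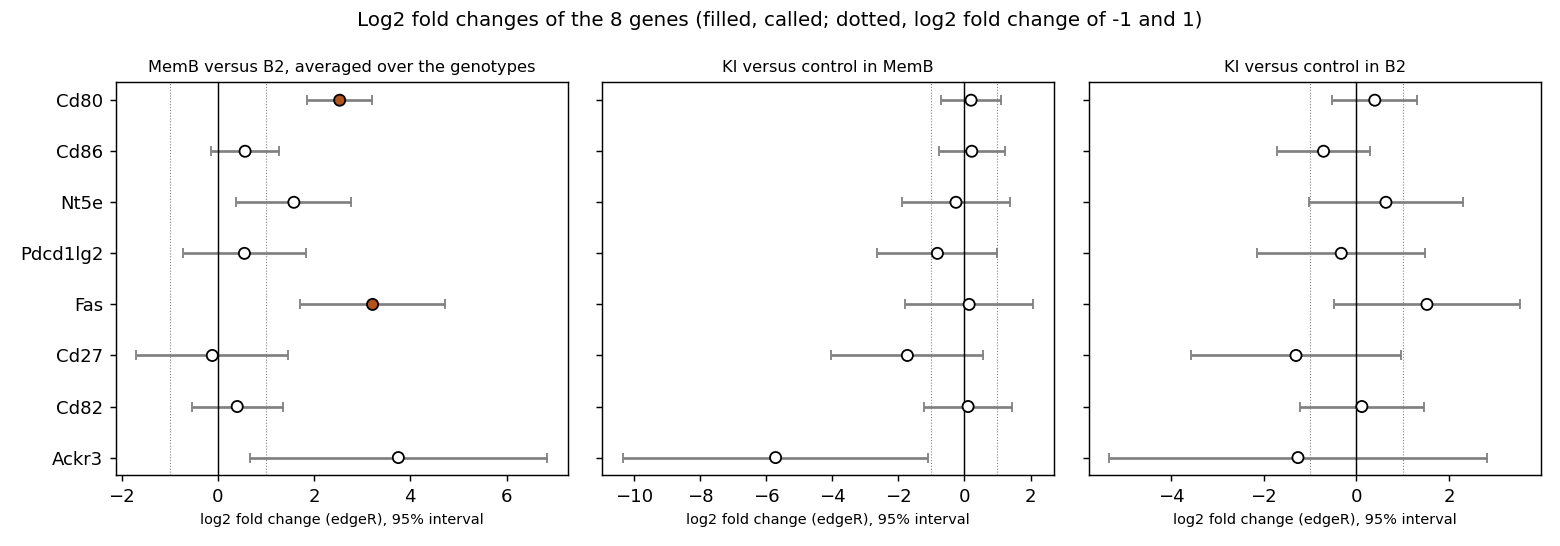
Log2 fold changes of the 8 genes with 95% intervals from edgeR, for MemB versus B2 (averaged over the genotypes), KI versus control in MemB and KI versus control in B2; x axes differ in range. Filled points (Cd80 and Fas, MemB versus B2) are called; the intervals of Ackr3 are the widest in each panel, and its fitted values depend on the prior count since 3 of the 4 groups lie at the floor.

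To compare levels between genes, CPM was divided by the exonic length of each canonical transcript. In CPM per kb, Cd80 was the highest member in Control MemB (58.9 ± 10.3, SD, n = 3), KI MemB (67.7 ± 9.65) and KI B2 (12.5 ± 2.55), where its range over libraries overlapped that of Cd86. Cd86 was the highest in Control B2 (17.3 ± 3.85), followed by Cd27 (10.7 ± 11.3) and Cd80 (9.51 ± 6.51), whose ranges over libraries overlapped. In both MemB groups Cd86 came next after Cd80, at 18.6 ± 15.03 CPM per kb in Control MemB and 21.7 ± 2.65 in KI MemB, and its highest library was below the lowest library of Cd80. Fas was the third in both MemB groups (14.6 ± 7.93 and 16.2 ± 7.10 CPM per kb) and its range overlapped those of Cd86 and Cd82. In B2 its range over libraries overlapped that of Nt5e in both genotypes. Ackr3 was lowest in every group.

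As a description over the 12 libraries, the gene whose log2 CPM was most like that of each member was named, among 8443 genes. The points share libraries and cell types, and no p is attached. For Cd80 it was Kmt2a, a histone methyltransferase (Pearson's r = 0.947), and for Fas it was Zbtb32, a transcription factor that is among the B-1 markers above (r = 0.974). For Ackr3 it was Ccl22, a chemokine of dendritic cells and activated B cells (r = 0.961). Ccl22 was 6.38, 1.06 and 90.6 CPM in Control MemB and between 0.203 and 0.616 CPM in the other 9 libraries. The best matches of the others were lower, from 0.884 (Nt5e with Psmb3) to 0.921 (Cd27 with Gnpnat1). Between members, the highest r was 0.763, of Cd80 with Fas, followed by 0.730 of Nt5e with Fas and 0.717 of Fas with Cd82, while Cd86 with Cd80 had an r of 0.284.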

How the data were processed

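The data are 12 RNAseq libraries of Control and KI B2 and MemB, 3 a group. Sorted cells were amplified with Ovation RNA-seq System V2 and sequenced as paired ends, per the study's methods. The authors deposited 1 table of expected counts per gene (not whole in 32.2% of nonzero cells), made, per their processing notes, with FastQC 0.12.1, cutadapt 4.5, STAR 2.7.11a, RSEM 1.3.3 and mm39. Here the counts were rounded, and 813 rows without a gene name (0.605 to 0.689% of counts) were left out.

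EdgeR 4.0.16 (R 4.3.3; TMM, robust quasi-likelihood fit of 4 group means, filterByExpr with its minimum of 10 counts, Benjamini-Hochberg adjustment over 14933 genes) gave the main tests, after a test on simulated data. DESeq2 1.42.0 was an alternative, alongside other filters, scalings and fits and leaving out libraries. CPM are TMM-normalized. P-values come from tests that set differences of group means against the spread between these libraries, whose source animals the labels do not name. Depth limits low genes: 3 counts per library was taken as the floor, for counting error only.

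The members and gene lists were chosen with earlier results of these data known. The rule named all 8 members, called pathway genes and partners, and each member's most like gene (mean of at least 10 CPM in a group; predicted genes and immunoglobulin segments left out). Of 7 mast cell genes listed, 6 were in the table. 1 member of the B cell identity list is not reported here. Positions, exonic lengths and promoters were read from GRCm39 (the build called mm39) with GENCODE M39, not the RefSeq promoter table, which is of another build. Whether counting used strand is not given in the sources used here.

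Replicate numbers were checked for pairing. Deviations of same-numbered libraries from their group means correlated between -0.026 and 0.033 in the 18 pairs. Libraries of a group varied widely, so this check cannot exclude that B2 and MemB with the same number came from the same mouse. The numbers also go with sex, as given above. In the main tests the numbers were not used to pair libraries, and fits with blocks by number are given below.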

Additional observations from a re-analysis of the deposited data

How the results depend on the processing

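The averaged Cd80 difference was called in every alternative run, with the lowest log2 fold change (2.31) and the highest (2.81) both among the fits that left out 1 library. Of the 8 members, edgeR called 1 to 2 in MemB against B2 when 1 library was left out, 1 (Cd80) without the 4 libraries numbered 3 and 1 (Cd80) without the 3 libraries high in mast cell genes, an alternative chosen after seeing the data. In control mice 2 members were called with no filter on low counts (Cd80 and Fas), 3 by DESeq2 (Cd80, Fas and Ackr3), as in the averaged comparison, 2 (Cd80 and Fas, in both) by DESeq2 after the filter, also added after seeing the data, and 0 in a fit of the 6 libraries alone. In KI mice 0 to 1 were called with 1 library left out and 0 without the libraries high in mast cell genes. Between KI and control MemB, DESeq2 called 1 (Ackr3) and, after the filter, 0. The DESeq2 counts that include Ackr3 are given for completeness and support nothing on that gene, which is above 3 counts in Control MemB alone. Over all genes DESeq2 made more calls than edgeR, 817 against 154 in the averaged comparison, 669 against 40 in control mice, 630 against 54 in KI mice, 777 against 42 for KI against control MemB, 196 against 1 in B2 and 412 against 10 for the unequal KI effect. Without the filter edgeR made 237, 96, 104, 89, 8 and 41 calls in the same order, and without the libraries high in mast cell genes 88, 15, 39, 12, 3 and 5. DESeq2 after the filter made 576, 392, 393, 471, 41 and 205. Without the 4 libraries numbered 3 edgeR made 88, 18, 29, 23, 2 and 9. A non-robust fit made 24 in control mice, 21 for KI against control MemB and 4 for the unequal KI effect, for which 3 were made with immunoglobulin genes left out and 6 with the replicate block. The fit of 6 libraries alone made 12 for KI against control MemB. With 1 library left out the counts ranged from 104 to 157 in the averaged comparison, 19 to 43 in control mice, 27 to 61 in KI mice, 15 to 49 for KI against control MemB, 1 to 2 in B2 and 5 to 10 for the unequal KI effect. The cause of these differences was not tested. With a minimum count of 30 Ackr3 was not tested. Depth limits Ackr3, which lay at or under 3 counts in 9 libraries.

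Sign changes were limited to comparisons in which the member was not called. With 1 library left out, the log2 fold change of MemB over B2 ranged from -0.67 to 0.55 for Cd27 on average. In control mice it ranged from -0.80 to 0.44 for Cd86, from -1.02 to 1.42 for Cd27 and from -0.013 to 0.66 for Cd82. In KI mice it ranged from -0.19 to 1.06 for Pdcd1lg2 and from -0.95 to 0.32 for Cd27. Between KI and control MemB it ranged from -0.11 to 1.13 for Cd86, from -0.69 to 0.44 for Nt5e, from -0.22 to 0.54 for Fas and from -0.14 to 0.53 for Cd82. Between KI and control B2 it ranged from -0.045 to 0.95 for Cd80, from -1.08 to 1.36 for Pdcd1lg2, from -0.54 to 2.64 for Fas, from -1.95 to 0.021 for Cd27 and from -0.065 to 0.33 for Cd82. The unequal KI effect ranged from -0.74 to 0.24 for Cd80, from -2.18 to 0.26 for Pdcd1lg2, from -2.49 to 0.69 for Fas, from -1.75 to 0.70 for Cd27 and from -0.27 to 0.41 for Cd82.

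Without the 4 libraries numbered 3, Cd27 was 0.27 in the averaged comparison and 0.50 between KI and control B2, Cd86 was -0.20 and Nt5e 0.18 between KI and control MemB, and the unequal KI effect was 0.10 for Cd80 and 0.45 for Cd82. Without the libraries high in mast cell genes, Cd27 was 0.17 in the averaged comparison, Cd86 -0.66 in control mice, Fas -0.41 between KI and control MemB, and the unequal KI effect 0.26 for Cd82.

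With the replicate number as a block (replicate block), the log2 fold changes of Cd80 and Fas in the averaged comparison were 2.63 and 3.96, both called. In that fit Cd86 was -0.068 and Cd27 -0.25 in control mice, Fas -0.37 between KI and control MemB, Cd27 0.020 between KI and control B2, and the unequal KI effect 0.034 for Cd82. With a block for each number within a genotype, Cd86 was -0.20 and Cd27 -0.59 in control mice, and the unequal KI effect 0.29 for Cd27 and 0.10 for Cd82. The replicate block changed the call of no member in any comparison.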
